A study of Mus musculus with 24 samples.

Results

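The 10 genes described here are Cdk17, Aopep, Gnptab, Leprotl1, Mpp6, Fam222b, Mns1, Dnajc6, Abhd17b and 1110059E24Rik. They were selected on MLL1: in each of 4 mouse leukaemia lines, the length of the gene that lay in MLL1 regions after the inhibitor VTP50469 was at most 50% of the length in DMSO. Of 21631 protein-coding genes, 5414 had an MLL1 region in DMSO in all 4 lines, and 80 of them (1.48%) met this rule. The 10 genes are part of those 80, so their MLL1 values are a description of what chose them, with no test. Covered length means the bases of the gene, plus 2 kb on either side, that lie in the called regions of a list. It is a length and not an amount of bound protein.

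MLL1, also called KMT2A, is a histone methyltransferase that places methyl groups on lysine 4 of histone H3, a mark found at active promoters. Its N-terminal part binds menin, and a CXXC domain binds DNA that holds unmethylated CG pairs. VTP50469 is a small molecule that occupies the site on menin at which MLL1 binds. NUP98 fusions join part of a nuclear pore protein to a partner, here the homeobox proteins HOXA9 and HOXD13 or the chromatin proteins JARID1A and NSD1, and they drive acute myeloid leukaemia.

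Chromatin immunoprecipitation with sequencing was done on 4 lines named for their fusions (NUP98-JARID1A, NUP98-NSD1, NUP98-HOXD13 and NUP98-HOXA9), all labelled as mouse leukaemia and grown with fetal bovine serum, antibiotics and the mouse cytokines IL-3, IL-6 and SCF. MLL1 was mapped in all 4 lines in DMSO and VTP50469, for 72 h in NUP98-HOXA9 and 96 h in the other lines. The other targets were Menin, mapped in the HOXA9 and HOXD13 lines, and H3K4me3, the trimethylated form of that lysine, mapped in NUP98-HOXA9, all at 96 h. Cells received 2 µM, but the sources conflict for NUP98-NSD1: its sample labels give 200 nM while the treatment protocol names 2 µM. The label is followed here, so this line is called the one at 200 nM and its values stand beside the others at a labelled dose that differs. Each condition had 1 library, so no difference below has a replicate check and no p-value was computed. How many clones or animals a line stands for is not stated in the labels.

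The lists themselves changed in length. From DMSO to VTP50469 the total MLL1 length went from 15.5 to 12.4 Mb in NUP98-HOXA9, from 13 to 7.61 Mb in NUP98-HOXD13, from 11 to 16.2 Mb in NUP98-JARID1A and from 4.74 to 0.589 Mb in NUP98-NSD1. Menin went from 3.88 to 0.299 Mb in NUP98-HOXA9 and from 10.6 to 8.55 Mb in NUP98-HOXD13, and H3K4me3 from 8.05 to 8.62 Mb. With 1 library each, a change of binding at a gene and a change in how much was called in a library cannot be told apart. The rule asked for shorter MLL1 in every line. Any gene that met it therefore went against the NUP98-JARID1A list, which grew. NUP98-NSD1 is the line in which nearly every gene lost length.

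The start sites are given first as sequence, because MLL1 stayed over most of them at 2 µM. The RefSeq table of promoters (GRCm38.p6, 250 bases before to 50 after a start site) holds 11 windows for 8 of the genes, and none for Cdk17 and Leprotl1. The 5 windows printed here were picked after their values were seen, for contrast in MLL1 and CG pairs, so they do not show that the 2 go together. Those of Abhd17b, 1110059E24Rik, Gnptab and Mns1 held MLL1 over all 300 bases after 2 µM VTP50469 in each of 3 lines, and the first listed site of Dnajc6 held none after treatment. CG pairs are in capitals. Abhd17b lies at chr19:21653059-21653358 on the plus strand, 1110059E24Rik at chr19:21652742-21653041 on the minus strand, Gnptab at chr10:88379018-88379317, Mns1 at chr9:72438279-72438578 and that site of Dnajc6 at chr4:101507726-101508025, the last 3 on the plus strand.
Abhd17b: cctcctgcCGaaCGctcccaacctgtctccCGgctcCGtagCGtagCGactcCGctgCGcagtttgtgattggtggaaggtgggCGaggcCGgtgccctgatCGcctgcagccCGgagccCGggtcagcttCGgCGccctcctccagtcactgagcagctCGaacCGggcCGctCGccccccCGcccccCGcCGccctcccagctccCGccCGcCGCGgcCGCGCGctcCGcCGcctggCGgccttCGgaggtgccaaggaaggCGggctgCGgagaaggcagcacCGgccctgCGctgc
1110059E24Rik: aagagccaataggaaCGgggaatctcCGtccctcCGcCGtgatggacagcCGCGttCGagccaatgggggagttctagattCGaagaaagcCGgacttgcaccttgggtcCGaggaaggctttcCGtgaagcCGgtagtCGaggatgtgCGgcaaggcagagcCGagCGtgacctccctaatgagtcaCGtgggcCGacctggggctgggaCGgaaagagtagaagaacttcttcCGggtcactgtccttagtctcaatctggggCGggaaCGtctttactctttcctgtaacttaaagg
Gnptab: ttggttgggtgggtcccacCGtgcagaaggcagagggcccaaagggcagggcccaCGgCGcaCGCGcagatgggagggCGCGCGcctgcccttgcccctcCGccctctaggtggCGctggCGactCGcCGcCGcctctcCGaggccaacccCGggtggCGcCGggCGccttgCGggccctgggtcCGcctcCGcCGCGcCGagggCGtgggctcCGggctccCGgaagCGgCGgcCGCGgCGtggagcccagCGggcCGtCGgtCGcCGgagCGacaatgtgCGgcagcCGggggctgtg
Mns1: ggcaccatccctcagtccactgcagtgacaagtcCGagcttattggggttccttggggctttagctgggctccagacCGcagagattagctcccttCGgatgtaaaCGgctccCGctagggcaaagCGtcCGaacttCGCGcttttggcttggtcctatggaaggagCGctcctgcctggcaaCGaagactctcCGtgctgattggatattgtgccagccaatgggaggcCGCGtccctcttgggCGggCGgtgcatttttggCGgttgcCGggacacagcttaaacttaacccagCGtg
Dnajc6: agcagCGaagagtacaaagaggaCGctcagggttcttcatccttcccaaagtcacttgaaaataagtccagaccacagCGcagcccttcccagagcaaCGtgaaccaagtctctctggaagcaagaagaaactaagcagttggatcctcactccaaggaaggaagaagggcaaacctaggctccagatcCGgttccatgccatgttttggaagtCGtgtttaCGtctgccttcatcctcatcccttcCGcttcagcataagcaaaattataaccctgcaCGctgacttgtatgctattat

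These windows held 37 CG pairs at Abhd17b, 22 at 1110059E24Rik, 41 at Gnptab, 19 at Mns1 and 9 at the first site of Dnajc6, against a median of 7 over all 32851 promoters in the table. The other windows held 19 at Aopep, 43 and 30 at the start sites of Mpp6, 17 and 21 at those of Fam222b and 16 at the second site of Dnajc6. So all 11 windows were above the median of all promoters, and the printed window of Dnajc6 was the closest to it. The letters GGGCGG, on either strand, were in 8 of the 11 windows and in 35.7% of all promoters. CCGGAAG was in 4 windows (8.86% of all promoters), CCAAT in 4 (37.4%) and CACGTG in 1 (7.15%). TGACGTCA (1.79%), TGATTTAT (0.977%) and TGACAG (19.2%) were in none. No searched word contains another on either strand, and a match is only a description of the window.

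In NUP98-HOXA9, 9 of the 11 windows touched an MLL1 region in DMSO and 0 of these 9 lost it after VTP50469, where 5.14% of all promoters with MLL1 lost it. In NUP98-HOXD13, 2 of 10 windows lost MLL1 (13.7% of all promoters), and in NUP98-JARID1A 2 of 10 (1.61%). Those losses were the first site of Dnajc6 and the second site of Mpp6 in both lines. MLL1 only touched the Dnajc6 window in DMSO, with 71 bases in NUP98-HOXD13 and 43 in NUP98-JARID1A. The Mpp6 window, with 30 CG pairs, went from 300 to 0 covered bases in both lines. The rule chose these genes for losing MLL1 length, so the lost shares are only a description. In NUP98-NSD1 at 200 nM, 7 of 8 windows lost MLL1, against 87.1% of all promoters, and the window of Abhd17b was the exception with 254 of its 300 bases covered. At 2 µM the genes that lost most of their MLL1 length thus still had MLL1 over most of the start sites for which a sequence is listed.

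The 10 genes began with long MLL1 coverage. Their median covered length in DMSO was 4824.5 bp in NUP98-HOXA9, 3286 bp in NUP98-HOXD13, 4759.5 bp in NUP98-JARID1A and 3045.5 bp in NUP98-NSD1, against medians of 918, 877, 755 and 631 bp over all genes with an MLL1 region. After VTP50469 the summed length over the 10 genes was 25.8%, 18.4%, 40.3% and 7.21% of DMSO in the same order of lines. The share of all genes at or below 50% was 12.8% for NUP98-HOXA9, 30.4% for NUP98-HOXD13, 2.51% for NUP98-JARID1A and 94.1% for NUP98-NSD1. Among genes with 2 kb or more of MLL1 in DMSO, which resemble the 10 in length, those shares were 38.4%, 57.6%, 7.12% and 97.7%. All 10 genes are below 50% in each line because the rule asked for it, and nothing is read from that count.

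**Figure D1:**
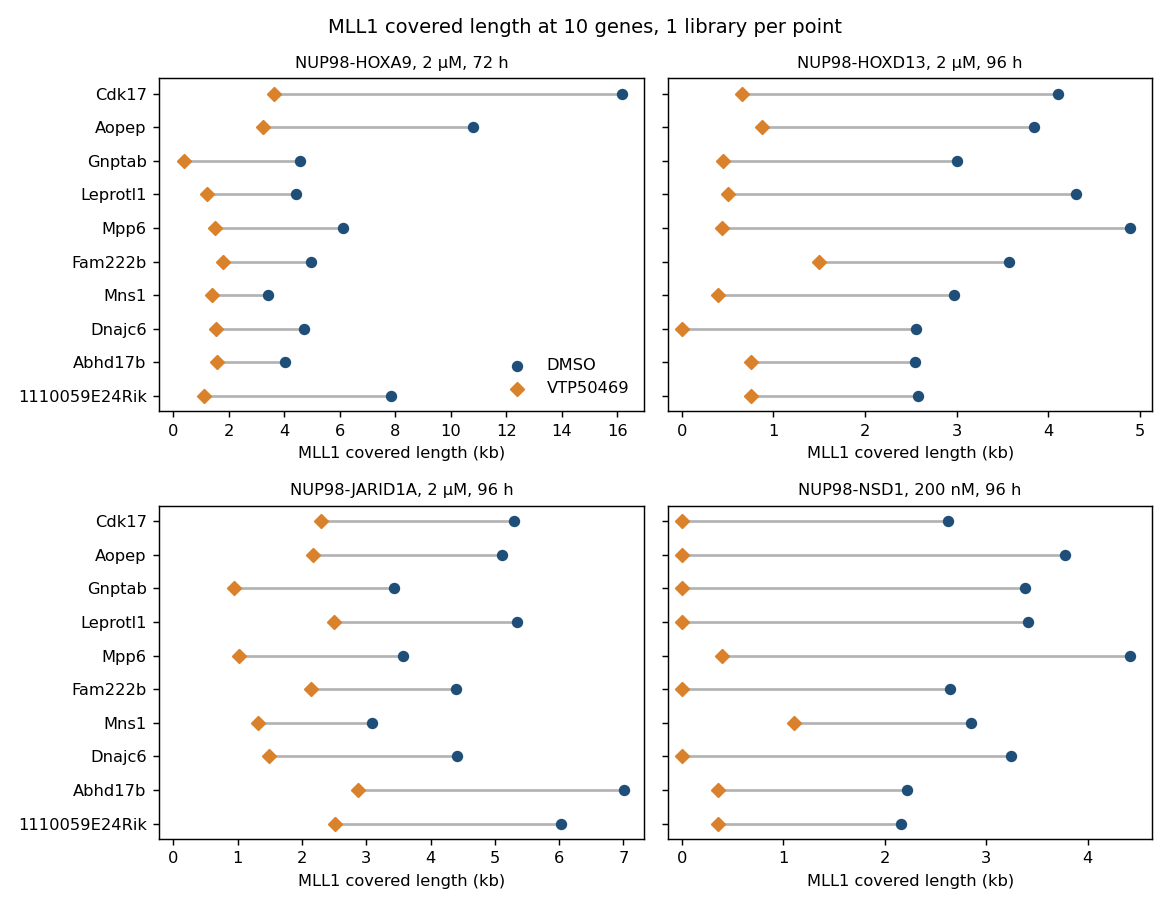
MLL1 covered length (kb, linear axis that differs between panels) of each gene in DMSO (blue circles) and VTP50469 (orange diamonds), 1 library per point, in the 4 lines. Cdk17 in NUP98-HOXA9 spans the widest gap, from 16169 to 3618 bp, and 6 genes sit at 0 after VTP50469 in NUP98-NSD1.

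The plot of all genes shows the same values against their lists. With 200 bp added to both lengths, the median log2 ratio of the 10 genes was -1.71 for NUP98-HOXA9, -2.31 for NUP98-HOXD13, -1.18 for NUP98-JARID1A and -3.82 for NUP98-NSD1. In NUP98-JARID1A the median gene kept 129% of its DMSO length while the 10 genes kept between 27.6% and 48.4%. That line held the highest of the 4 ratios for each of the 10 genes. In NUP98-NSD1 the list shrank so far that, divided by the ratio of total lengths, Mns1 came to 3.13, Abhd17b to 1.29 and 1110059E24Rik to 1.33, above 1 instead of below it.

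**Figure D2:**
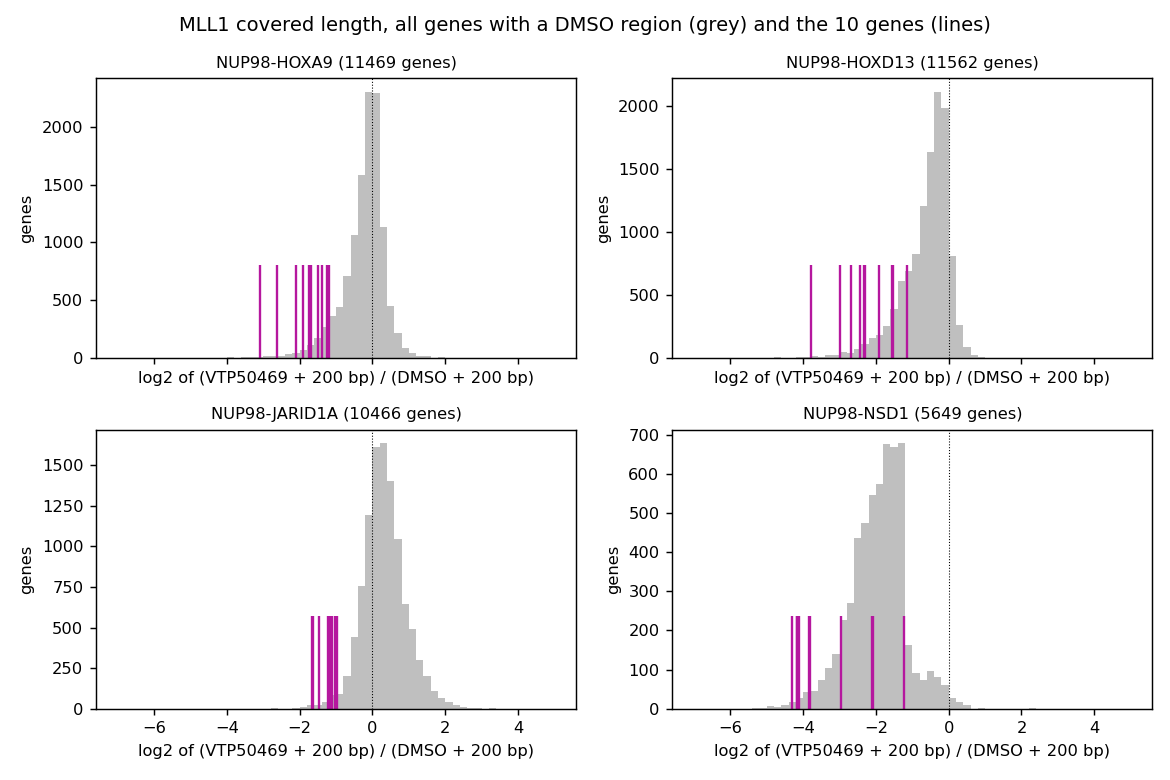
Number of genes by log2 ratio of MLL1 covered length, VTP50469 over DMSO with 200 bp added to both, for all genes with a DMSO region (grey bars) and the 10 genes (purple lines, height without meaning) in the 4 lines. The 10 genes lie left of 0 in every panel by their selection, and in NUP98-NSD1 the grey bars lie there too.

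Just inside the threshold of the rule were Mrps30 and Pex13, both with a highest ratio of 0.496, and Igtp with 0.498. Just outside were Lpin2 (0.502), Armc3 (0.507) and B2m (0.508). Ranked by their highest ratio among the 80 genes, from the strongest narrowing, Gnptab was 8, Mpp6 11, Dnajc6 16, Abhd17b 27, 1110059E24Rik 32, Aopep 34, Mns1 36, Cdk17 38, Leprotl1 60 and Fam222b 66. Fam222b, with 0.484 in NUP98-JARID1A, was the nearest of the 10 to the threshold. When both lists of a pair were brought to the same number of regions, Fam222b rose to 0.535 in NUP98-HOXD13. Gnptab in NUP98-NSD1 and Dnajc6 in NUP98-HOXD13 then had no DMSO region left to compare, while the Gnptab ratios in the other lines were 0.0835, 0.207 and 0.138.

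Gnptab, Leprotl1 and Dnajc6 serve membrane traffic. Gnptab, on chromosome 10 (chr10:88379134-88447324, mm10), encodes the alpha and beta subunits of the enzyme that starts the mannose 6-phosphate tag on lysosomal enzymes. MLL1 covered 4552 bp of it in DMSO and 361 bp after VTP50469 in NUP98-HOXA9, 3004 and 451 bp in NUP98-HOXD13, 3430 and 945 bp in NUP98-JARID1A, and 3379 and 0 bp in NUP98-NSD1. The region at the start of the gene was 1364, 1475 and 2119 bp wide in the 3 lines treated with 2 µM and shrank to 361, 451 and 473 bp. It was the only region left in NUP98-HOXA9 and NUP98-HOXD13. An internal position from 10.3 to 11.9 kb held MLL1 in DMSO in all 4 lines and in no line after VTP50469. A long noncoding RNA gene, Gm40733, runs away from the same promoter on the other strand.

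Leprotl1 (chr8:34135572-34146739) encodes a small endosomal membrane protein related to Leprot. Its lengths were 4412 and 1190 bp in NUP98-HOXA9, 4309 and 501 bp in NUP98-HOXD13, 5343 and 2493 bp in NUP98-JARID1A, and 3409 and 0 bp in NUP98-NSD1. In DMSO most of the coverage lay over the higher-coordinate part of this short gene, from 6.77 to 12.1 kb, and in NUP98-JARID1A it was 1 unbroken region of 5343 bp. At the other end, regions of 580 bp in NUP98-HOXA9, 281 bp in NUP98-HOXD13 and 412 bp in NUP98-NSD1 were present in DMSO, and the first of these stayed at 497 bp. VTP50469 left 4 pieces of 519, 341, 331 and 1302 bp in NUP98-JARID1A. At the place of the widest piece, 693 bp stayed in NUP98-HOXA9 and 501 bp in NUP98-HOXD13.

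Dnajc6 (chr4:101496648-101642799) encodes auxilin, a co-chaperone that helps strip clathrin from vesicles. MLL1 covered 4696 and 1535 bp in NUP98-HOXA9, 2559 and 0 bp in NUP98-HOXD13, 4414 and 1481 bp in NUP98-JARID1A, and 3242 and 0 bp in NUP98-NSD1. Most of it lay between 11.3 and 16 kb into the gene, in single regions of 3850 bp in NUP98-HOXA9, 4414 bp in NUP98-JARID1A and 2489 bp in NUP98-NSD1. These began at 12.1, 11.3 and 12 kb, at or past the first listed start site at 11.3 kb. Small regions near 67 and 79 kb made up the rest. After VTP50469 this stretch held pieces of 524, 224 and 520 bp in NUP98-HOXA9 and 1 piece of 777 bp in NUP98-JARID1A. Dnajc6 was the only one of the 10 with no MLL1 region left in NUP98-HOXD13.

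Mpp6 and Abhd17b act at membranes. Mpp6 (chr6:50110228-50199154) encodes a scaffold protein of the membrane-associated guanylate kinase family. Its lengths were 6101 and 1485 bp in NUP98-HOXA9, 4896 and 442 bp in NUP98-HOXD13, 3577 and 1020 bp in NUP98-JARID1A, and 4417 and 394 bp in NUP98-NSD1. The start region went from 1119, 1652 and 1680 bp to 782, 442 and 473 bp in the 3 lines at 2 µM and was gone in NUP98-NSD1. Far inside the gene, near 77.8 kb, MLL1 was present in DMSO in all 4 lines and stayed in 3 of them, with 327 bp in NUP98-HOXA9, 547 bp in NUP98-JARID1A and 394 bp in NUP98-NSD1. In NUP98-NSD1 this internal piece was all that was left of Mpp6.

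Abhd17b (chr19:21653267-21685638) encodes an enzyme that removes palmitate from proteins, and 1110059E24Rik (chr19:21597313-21652791) is a protein-coding gene without a settled function. The listed start sites, 21653309 on the plus strand and 21652791 on the minus strand, stand head to head, and 1 MLL1 region covers both. That region is counted for both genes, and the 10 genes are 9 separate loci. The shared region was 2165 bp wide in NUP98-HOXA9, 2031 bp in NUP98-HOXD13, 7018 bp in NUP98-JARID1A and 1352 bp in NUP98-NSD1. After VTP50469 it was 1107, 751, 2335 and 356 bp, with a second piece of 534 bp in NUP98-JARID1A. The shared region was the only position of the 10 genes that held MLL1 in all 4 lines after VTP50469.

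For Abhd17b as a whole the lengths were 4023 and 1581 bp in NUP98-HOXA9, 2545 and 751 bp in NUP98-HOXD13, 7017 and 2869 bp in NUP98-JARID1A, and 2216 and 356 bp in NUP98-NSD1. A second region near 10.6 kb was present in DMSO in all 4 lines and stayed only in NUP98-HOXA9, at 474 bp. For 1110059E24Rik they were 7828 and 1107 bp, 2584 and 751 bp, 6026 and 2515 bp, and 2161 and 356 bp in the same order of lines. Its other 9 regions in NUP98-HOXA9, from 356 to 1720 bp wide, were all absent after VTP50469. With the bases that lie within 2 kb of another gene left out, 1110059E24Rik fell to 0 in all 4 lines and Abhd17b to 0 in NUP98-HOXD13 and NUP98-NSD1.

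**Figure D3:**
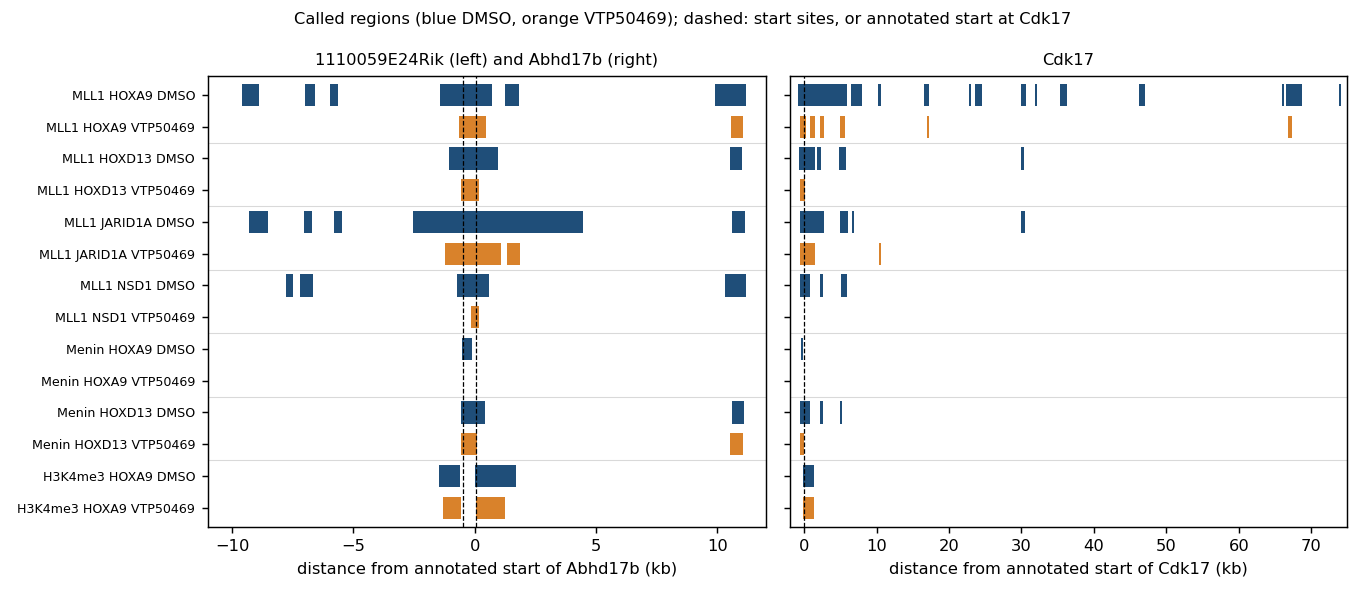
Called regions of each list (blue in DMSO, orange in VTP50469) by distance in kb from the annotated start of Abhd17b, left, and Cdk17, right, with dashed lines at the listed start sites, or at the annotated start for Cdk17. The region between the start sites on the left narrows but stays in all 4 MLL1 pairs, and the regions inside Cdk17 thin out.

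Cdk17 and Aopep, enzymes of other kinds, had the longest coverage in NUP98-HOXA9. Cdk17 (chr10:93160876-93251094) encodes a kinase of the PCTAIRE group of cyclin-dependent kinases. MLL1 covered 16169 and 3618 bp in NUP98-HOXA9, 4107 and 658 bp in NUP98-HOXD13, 5300 and 2295 bp in NUP98-JARID1A, and 2623 and 0 bp in NUP98-NSD1. NUP98-HOXA9 had 13 regions in DMSO, the first of them 6822 bp wide, and 6 after VTP50469, the widest 878 bp and placed over the annotated start. In NUP98-HOXD13 a start region of 658 bp was all that stayed of 4 regions. The microRNA gene Mir1931 (chr10:93162785-93162903, plus strand) lies within the first wide region and is shown because MLL1 left it completely. All 119 bases of its hairpin were covered in DMSO in NUP98-HOXA9, NUP98-HOXD13 and NUP98-JARID1A, and 0 bases after VTP50469 in these lines. It had no MLL1 in either condition in NUP98-NSD1. The mature sequence from RefSeq follows, with the seed, bases 2 to 8, in capitals.
mmu-miR-1931: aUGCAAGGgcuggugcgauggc

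Aopep (chr13:62964893-63326096) encodes aminopeptidase O, a member of the M1 family of metallopeptidases. Its lengths were 10806 and 3214 bp in NUP98-HOXA9, 3848 and 876 bp in NUP98-HOXD13, 5105 and 2173 bp in NUP98-JARID1A, and 3771 and 0 bp in NUP98-NSD1. Most of the DMSO coverage did not lie at the start but in a cluster from 275 to 290 kb into the gene. The region at the start was 757 bp before and 780 bp after VTP50469 in NUP98-HOXA9, 510 and 492 bp in NUP98-HOXD13, and 468 and 860 bp in NUP98-JARID1A. So at Aopep the start kept its width at 2 µM and the downstream cluster gave up its length. In the cluster, the first region at 275 kb stayed in those 3 lines at 812, 384 and 850 bp, and the widest one in NUP98-HOXA9, 3542 bp near 280 kb, was left with 2 pieces of 550 and 428 bp. The microRNA genes Mir23b, Mir27b and Mir24-1 near the far end of Aopep had no MLL1 base in any list.

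Mns1 (chr9:72437821-72458581) encodes a protein needed in sperm flagella and motile cilia. Its lengths were 3403 and 1380 bp in NUP98-HOXA9, 2971 and 390 bp in NUP98-HOXD13, 3083 and 1318 bp in NUP98-JARID1A, and 2849 and 1108 bp in NUP98-NSD1. Unlike Gnptab, Mns1 had its widest MLL1 inside the gene, from 10.3 to 13.1 kb, with 1 region of 2572, 2521, 2142 and 2585 bp in the 4 lines. It shrank to 842 bp in NUP98-HOXA9, 641 bp in NUP98-JARID1A and 1108 bp in NUP98-NSD1 and was absent in NUP98-HOXD13. In NUP98-NSD1 its deposited fold enrichment in DMSO was 37.3, above 99.9% of the regions of that list. At 200 nM the stronger internal region of Mns1 stayed and the start region of 264 bp did not.

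Fam222b (chr11:78094690-78157339) encodes a little-characterised protein. Its lengths were 4953 and 1789 bp in NUP98-HOXA9, 3568 and 1502 bp in NUP98-HOXD13, 4403 and 2132 bp in NUP98-JARID1A, and 2639 and 0 bp in NUP98-NSD1. MLL1 stayed at 3 places in all 3 lines at 2 µM: the start, the second listed start site at 20.9 kb and a position near 32 kb. At the second start site the region went from 1662 to 779 bp in NUP98-HOXA9, from 1115 to 625 bp in NUP98-HOXD13 and from 2126 to 577 bp in NUP98-JARID1A. A region near 25.1 kb, of 430, 778, 688 and 388 bp in the 4 lines, was lost in all of them.

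**Figure D4:**
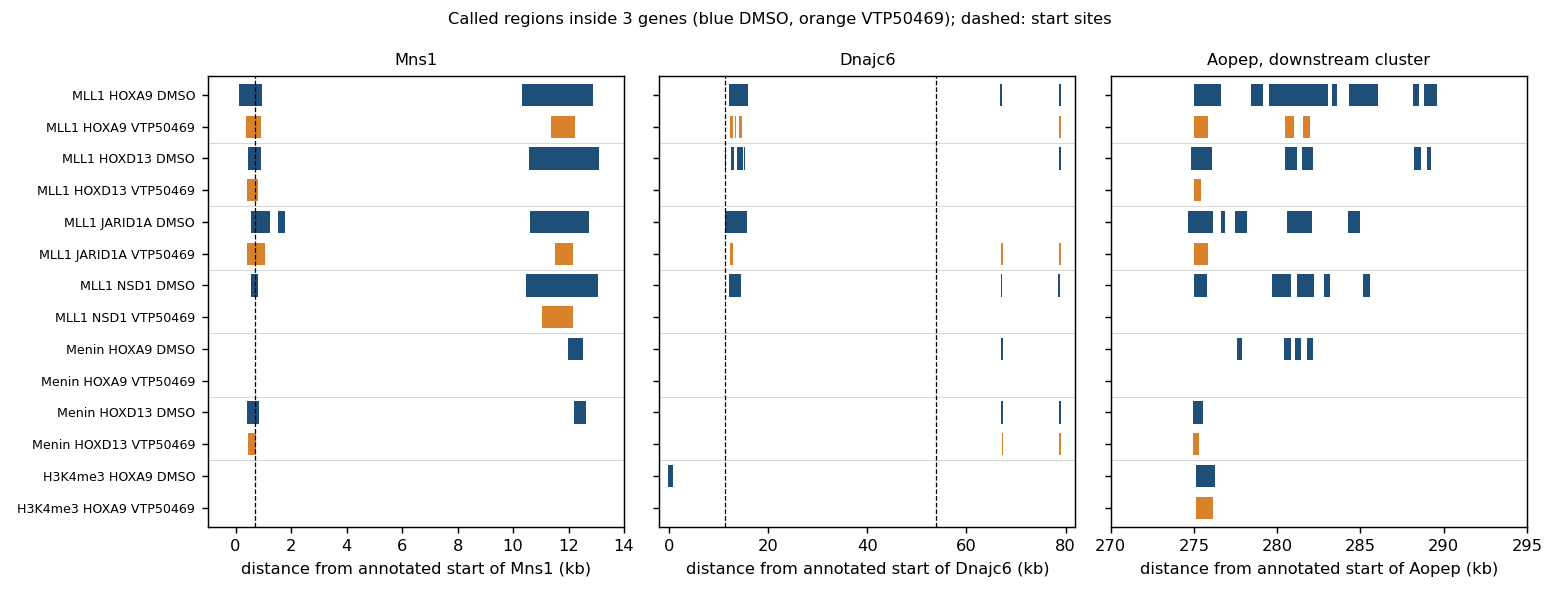
Called regions inside Mns1, Dnajc6 and the downstream cluster of Aopep (blue in DMSO, orange in VTP50469) by distance in kb from each gene's annotated start, with dashed lines at listed start sites. The wide internal MLL1 regions of Mns1 and Dnajc6 in DMSO leave shorter pieces or none after VTP50469. Neither overlaps an H3K4me3 region in NUP98-HOXA9, the only line with that mark, mapped there at 96 h against 72 h for MLL1.

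Across the loci, less of the length stayed away from gene ends than near them at 2 µM. Within 1 kb of an annotated end or listed start site, the 10 genes together kept 56.7% of the DMSO length in the HOXA9 line, 41.9% in the HOXD13 line and 70.3% in the JARID1A line. Elsewhere in the genes they kept 17.4%, 3.99% and 27.2%. In NUP98-NSD1 the shares were 7.46% and 7.1%, so no such contrast was seen at 200 nM. Bases shared by Abhd17b and 1110059E24Rik enter these sums for both genes.

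Counted as regions, each once, the same loci held 63 MLL1 regions in DMSO for NUP98-HOXA9, 44 for NUP98-HOXD13, 35 for NUP98-JARID1A and 34 for NUP98-NSD1. Near an end, 11 of 11, 9 of 11, 10 of 11 and 1 of 10 shared at least 1 base with a region after VTP50469. Over all genes, 91.1%, 81.5%, 96.5% and 12.5% of the MLL1 regions near an end did. Elsewhere 12 of 52, 2 of 33, 5 of 24 and 2 of 24 did at these genes, against 59.9%, 46.4%, 78.7% and 5.2% over all genes. The higher share near ends was thus a feature of all genes at each dose, and the rule chose these 10 for losing length. Wide regions, of at least 1 kb, numbered 20 before and 1 after in NUP98-HOXA9, 10 and 0 in NUP98-HOXD13, 12 and 3 in NUP98-JARID1A, and 9 and 1 in NUP98-NSD1. In the whole lists they numbered 3892 and 1729, 3078 and 689, 2578 and 3605, and 1020 and 61. New regions appeared only in NUP98-JARID1A, with 6, the line whose whole list grew. Away from the ends, the regions that stayed had a higher median deposited fold in DMSO than those that were lost: 10.4 and 5.58 for NUP98-HOXA9, 10.3 and 5.14 for NUP98-HOXD13, 13.1 and 6.54 for NUP98-JARID1A and 30.1 and 6.06 for NUP98-NSD1. The part of this difference in the losses was not tested.

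Merging the DMSO regions of the 4 lines gave 69 positions. Of these, 30 were found in 1 line, 11 in 2, 11 in 3 and 17 in all 4. After VTP50469, 24 of the 30 positions of a single line had MLL1 in no line, while 15 of the 17 positions of all 4 lines had it in at least 1 line and 12 in at least 3. A position found in more lines has more chances to be found again, so these counts are only a description.

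Menin and H3K4me3 did not enter the rule. Menin lengths in NUP98-HOXA9 in DMSO were 230 bp at Cdk17, 1707 bp at Aopep, 239 bp at Leprotl1 and 739 bp at Fam222b. They were 538 bp at Mns1, 254 bp at Dnajc6, 440 bp each at Abhd17b and 1110059E24Rik, and 0 bp at Gnptab and Mpp6. The median over all genes with Menin in this list was 426 bp. After VTP50469 all 10 genes were at 0 bp. That is also what the list as a whole showed, since 98.7% of genes with Menin in DMSO were at 50% or less.

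In NUP98-HOXD13, Menin was called at all 10 genes in DMSO and at all 10 after VTP50469. Over all 21631 protein-coding genes, 11560 had Menin in DMSO in this line. The rule asked for MLL1 at the 10 genes, and no share was computed for other genes with MLL1, so nothing is read from this count. Cdk17 went from 2115 to 550 bp, Mns1 from 1089 to 282 bp and Aopep from 1705 to 790 bp, the 3 genes at or below 50%. Leprotl1 (803 to 405 bp) and Mpp6 (1489 to 757 bp) were just above that limit. 1110059E24Rik went from 1011 to 672 bp and Abhd17b from 1508 to 1184 bp. Gnptab (826 to 735 bp), Fam222b (1847 to 1684 bp) and Dnajc6 (705 to 701 bp) changed least. Thus 10 of 10 genes were shorter, where 82.6% of all genes were, and 3 of 10 were at 50% or less, where 13.5% of all genes and 9.77% of genes with 700 bp or more of Menin in DMSO were. Their median was 58.7% of DMSO, against 83.3% over all genes. The count of 3 became 1 when both lists had the same number of regions and 5 without the flank of 2 kb. Abhd17b and 1110059E24Rik share a Menin region of 1011 bp, so the 10 genes are fewer separate observations. The count of 10 shorter genes also depended on the setting. Scaled by total length, Gnptab came to 1.11, Fam222b to 1.13 and Dnajc6 to 1.24. Without shared bases, 9 genes had Menin in DMSO and Abhd17b came to 1.03. At Dnajc6 the MLL1 length fell to 0 in this line while both Menin regions, 67 and 78.7 kb into the gene, stayed. The second of them had overlapped a 228 bp MLL1 region in DMSO, and neither lay in the wide MLL1 stretch past 11.3 kb.

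**Figure D5:**
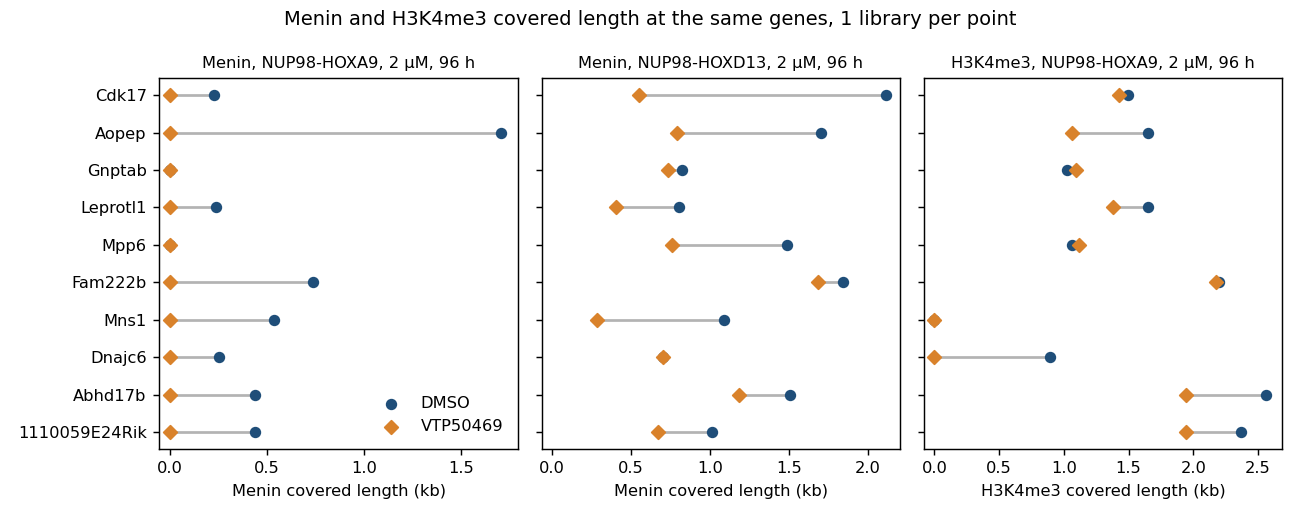
Covered length (kb, linear axes that differ between panels) of Menin (NUP98-HOXA9, left, and NUP98-HOXD13, middle) and H3K4me3 (NUP98-HOXA9, right) at the 10 genes in DMSO (blue circles) and VTP50469 (orange diamonds), 1 library per point. Menin is at 0 for every gene after VTP50469 in NUP98-HOXA9, while in NUP98-HOXD13 all genes keep between 282 and 1684 bp.

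The MLL1 regions were then split by whether Menin was called on them in DMSO. In NUP98-HOXD13, 19 of the 44 MLL1 regions at these genes overlapped Menin in DMSO, and 8 of them were lost, where 16% of such regions in the whole list were. All 25 regions without Menin were lost, where 89.1% were in the list. In NUP98-HOXA9, 1 of 9 regions with Menin was lost (0.418% in the list) and 39 of 54 without it (34.5%). In that line MLL1 was mapped at 72 h and Menin at 96 h. The rule chose these genes for losing MLL1 length in the same pairs. A larger lost share than in the list therefore follows from the choice, and nothing is read from it. Regions with Menin were also wider and higher: their median deposited fold was 9.25 against 4.98 in NUP98-HOXD13 and 19.6 against 6.24 in NUP98-HOXA9, with median widths of 925 against 390 bp and 2160 against 595 bp. The part of height and width in this contrast was not tested.

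H3K4me3 in NUP98-HOXA9 was present at 9 of the 10 genes in DMSO, and at 9169 of all 21631 protein-coding genes. No share was computed for other genes with MLL1 in all 4 lines, so nothing is read from this count. It went from 1498 to 1429 bp at Cdk17, from 1027 to 1095 bp at Gnptab, from 1063 to 1118 bp at Mpp6 and from 2198 to 2174 bp at Fam222b, genes whose MLL1 length at 72 h in the same line was at most 0.361 of DMSO. Leprotl1 went from 1651 to 1376 bp, Abhd17b from 2561 to 1946 bp, 1110059E24Rik from 2369 to 1946 bp and Aopep from 1651 to 1060 bp. At Aopep the H3K4me3 region of 524 bp at the start was absent after VTP50469 although MLL1 stayed there, and the one at 275 kb went from 1127 to 1060 bp. Dnajc6 had 891 bp at its annotated start, where no MLL1 was called, and 0 bp after VTP50469. Mns1 had none in either condition.

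In all, 7 of the 9 genes had shorter H3K4me3, where 43.4% of all genes did, and 1 of 9, Dnajc6, was at 50% or less, where 5.68% of all genes were. The median of the 9 was 83.3% of DMSO, against 104% over all genes. The 10 genes also began longer, with a median of 1574.5 bp in DMSO against 870 bp over all genes with H3K4me3. The part of this length in the difference was not tested. Abhd17b and 1110059E24Rik share most of their H3K4me3, so the 9 genes are fewer separate observations.

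Most MLL1 bases at these genes lay outside H3K4me3 regions. In DMSO the whole lists of this line held 15.5 Mb of MLL1 and 8.05 Mb of H3K4me3. The share over all genes was not computed, so this is not shown to be particular to the 10 genes. Of the 66943 bp of MLL1 at the 10 genes in NUP98-HOXA9 in DMSO, 11121 bp lay in H3K4me3 regions, with bases shared by 2 of the genes counted for both. After VTP50469, 4528 of the 17260 bp of MLL1 lay in H3K4me3 regions. The bases that MLL1 gave up came to 49924 bp, and 5320 bp of them were in H3K4me3 regions after VTP50469. At Gnptab, MLL1 shrank to a region from -0.173 to 0.187 kb around the annotated start, and H3K4me3 began at 0.156 kb, so 32 bp of the remaining MLL1 carried it. At Leprotl1, by contrast, 693 of the remaining 1190 bp did, and Mns1 and Dnajc6 had no H3K4me3 after treatment. Between Abhd17b and 1110059E24Rik the remaining MLL1 of 1107 bp bridged a gap between H3K4me3 regions of 743 and 1203 bp, with 495 bp in common. The MLL1 and H3K4me3 libraries differ in treatment time, 72 and 96 h, and in the number code of their titles.

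A list of 47 related genes, paralogues and partners of the 10, gave a further comparison. Of these, 16 had MLL1 in DMSO in all 4 lines, and 0 met the rule. For NUP98-HOXA9, 8 of 39 with MLL1 (20.5%) were at 50% or less, for NUP98-HOXD13 14 of 38 (36.8%), for NUP98-JARID1A 0 of 37 and for NUP98-NSD1 15 of 16 (93.8%). Their median ratios were 90.2%, 64%, 132% and 0% of DMSO, close to those over all genes, which were 89.7%, 66.7%, 129% and 0%. Their median DMSO lengths of 893, 901.5, 866 and 725.5 bp were also far shorter than those of the 10 genes. Menin was at 50% or less at 26 of 26 in NUP98-HOXA9 and 3 of 38 in NUP98-HOXD13, and H3K4me3 at 2 of 35.

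Single relatives show how the families differ. Leprot, the closest relative of Leprotl1, went from 1303 to 976 bp of MLL1 in NUP98-HOXA9 and from 838 to 1087 bp in NUP98-JARID1A. Gak, the broadly expressed auxilin related to Dnajc6, went from 676 to 598 bp and from 866 to 1008 bp in these lines. Abhd17c, a sister enzyme of Abhd17b, went from 2111 to 969 bp and from 2553 to 2142 bp. Among M1 aminopeptidases, Lnpep went from 3647 to 1548 bp and Npepps from 1939 to 660 bp in NUP98-HOXA9, but in NUP98-JARID1A they kept 0.889 and 0.842 of their DMSO length. By its highest ratio, 0.757 in NUP98-JARID1A, Lypla1, another depalmitoylating enzyme, came nearest to the rule. Its ratios of 0.622 in NUP98-HOXA9 and 0.645 in NUP98-HOXD13 were above the limit too. By contrast, Rnpep, Lta4h, Lnpep, Npepps, Cltc and Abhd17c were above the limit in NUP98-JARID1A only. Lta4h, the lowest of them there, was at 0.777 in NUP98-JARID1A, 0.229 in NUP98-HOXA9, 0.436 in NUP98-HOXD13 and 0 in NUP98-NSD1.

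The genes whose MLL1 pattern was most like the median of the 10, by Euclidean distance over the 4 log2 ratios and leaving out genes within 10 kb of them, were Nup210 (distance 0.53), Smc4 (0.58), Zbtb25 (0.62), Jmjd1c (0.65) and Phip (0.67). In NUP98-JARID1A their ratios were 0.566, 0.451, 0.577, 0.554 and 0.493, so 3 of these 5 genes, Nup210, Zbtb25 and Jmjd1c, lay above the 50% limit there. The distances of the 10 genes themselves ran from 0.39 for Cdk17 to 2.66 for Mns1. Mns1 and the pair Abhd17b and 1110059E24Rik stood farthest from the median, with log2 ratios in NUP98-NSD1 of -1.22, -2.12 and -2.09 against a median of -3.82.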

How the data were processed

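Each list belongs to 1 library, so peaks were called per sample. Per the submitters' processing notes, the build was mm10 and the tools MACS2, bedtools, SAMtools, Picard 2.9.4, STAR 2.7.5a and bcl2fastq 2.20.0.422. The sources used here give neither their settings nor the control input of each list, and the 10 inputs were not analysed. The deposited fold enrichment of a region is a ratio made by the authors and serves only to describe or rank regions within 1 list. The deposited −log10 q was at least 2 in every list, so an absent region may be weak enrichment. The lists do not show read depth, so no precision from it can be given.

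Covered length was computed over RefSeq spans (GRCm38.p6) plus 2 kb either side, with Python 3.11.15, pandas 2.3.3 and numpy 2.4.6, and the counting was tested on simulated regions. A region was kept if it shared 1 bp with a region of the other list of its pair. Gene ends were windows of 1 kb, since the gene table gives no strand, and regions were not assigned to exons or introns.

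The members and lists were chosen with earlier results of these data known. Named are the members, the 3 genes nearest to either side of the threshold, the 5 genes nearest in pattern, overlapping genes and related genes. The gene-end classes and their shares over all genes, long-gene shares, promoter windows, overlaps of Menin and H3K4me3 with MLL1 and the sequences shown were chosen after seeing the data. Alternatives were equal numbers of regions per pair, a −log10 q of at least 5, no flank, a flank of 5 kb, shared bases left out, scaling by total length, and limits of 25% and 75%.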

Additional observations from a re-analysis of the deposited data

Results flagged for a closer look

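Some ratios of covered length (VTP50469 over DMSO) went in opposite directions between lines, and none of these differences was tested. For MLL1, Cask was shorter in NUP98-HOXA9 (0.578) and NUP98-HOXD13 (0.614) and longer in NUP98-JARID1A (1.49). MLL1 at Synj1 was at 0.838, 0.693 and 0 in NUP98-HOXA9, NUP98-HOXD13 and NUP98-NSD1 and at 1.84 in NUP98-JARID1A. Menin at Zbtb25 was at 0 in NUP98-HOXA9 and at 1.23 in NUP98-HOXD13. All 3 are genes set beside the 10, and none of the 10 was flagged in this way.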

How the results depend on the processing

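Of 382 values of the 67 member ratios under other settings, 332 moved little, 47 moved and 3 moved far and changed direction. Some ratios near 1 also crossed it while moving little. Scaled by total length, Menin in NUP98-HOXD13 went from 0.89 to 1.11 at Gnptab, 0.912 to 1.13 at Fam222b and 0.994 to 1.24 at Dnajc6. H3K4me3 at Gnptab then went from 1.07 to 0.995. The 3 that moved far are MLL1 in NUP98-NSD1 scaled by the total length of the lists: Mns1 3.13, Abhd17b 1.29 and 1110059E24Rik 1.33. The number of genes at 50% or less then fell to 6 in that line. With a limit of 25% it was 4 for MLL1 in NUP98-HOXA9, 0 for MLL1 in NUP98-JARID1A and 0 for Menin in NUP98-HOXD13. With a limit of 75% it was 6 for Menin in NUP98-HOXD13 and 2 for H3K4me3. With lists of equal length it was 1 for Menin in NUP98-HOXD13 and 0 for Menin in NUP98-HOXA9, where no gene then had a region in DMSO. With a −log10 q of at least 5 it was 5 of 5 for Menin in NUP98-HOXA9, without a flank 5 for Menin in NUP98-HOXD13, and without shared bases 2 for H3K4me3. The rule itself was met by 7 genes with lists of equal length (not Fam222b, and not Gnptab and Dnajc6, which each had no DMSO region left in 1 line), by 9 with the stricter q (not Fam222b), by all 10 with another flank or without shared bases, and by 5 after scaling (not Mpp6, Fam222b, Mns1, Abhd17b and 1110059E24Rik). Each condition has 1 library, so no replicate could be left out. No paired analysis was possible because each condition has 1 library and no test was made.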
